A study of Mus musculus with 30 samples.

Results

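The 4 Hox clusters are runs of neighbouring homeobox genes on mouse chromosomes 6 (cluster A), 11 (cluster B), 15 (cluster C) and 2 (cluster D). A peak of open chromatin was assigned to them if it overlapped the RefSeq extent of any of 38 Hox genes, widened by 10 kb on both sides, and each peak was counted 1 time. Of the 257149 peaks in the count table, 6 met this rule. They lay 3 at cluster A and 1 each at clusters B, C and D, and 3 of the 6 lay inside the extent of a Hox gene.

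Accessibility was measured by ATAC-seq, which reads out where a transposase can insert into chromatin, in ventral hippocampus nuclei of 30 mice (15 female, 15 male) in 4 batches. Of these mice, 15 had been restrained in a tube daily for 10 days (chronic restraint) and 15 had only been handled. After 24 hours of single housing, 7 chronically restrained mice were collected 45 min after a fresh restraint began and 8 at 0 min, that is, from the home cage with no acute restraint, and so were 7 handled mice at 45 min and 8 handled mice at 0 min. Animals were not pooled, so p-values measure the spread between animals, and neither strain nor age was given in the sources used here.

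Hox genes encode transcription factors that tell cells where they lie between head and tail. Their order along each cluster, from the 3′ genes of low number to the 5′ genes of high number, follows the order of their expression along the body, and retinoic acid helps to switch on the 3′ genes first. In the embryo their expression stops in the hindbrain, so the forebrain, of which the hippocampus is a part, forms without them. In cells that do not use them, the clusters are a textbook target of Polycomb proteins, which deposit the histone mark H3K27me3 on promoters rich in CG dinucleotides.

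The start sites of the Hox genes with a sequence at hand ranged from 4 to 45 CG per promoter window (median 14.5, against 13 over all protein coding genes), with 11 of 24 windows at 20 or more, and none of the 24 had a peak over it. The sequences below run from 250 bases before to 50 bases after a RefSeq start site (GRCm38.p6, 5′ to 3′ on the gene's own strand), with each CG in capitals. For each cluster the window with the most CG dinucleotides among those with a sequence is shown, to let a reader see what was not in a peak. The window of Lhx2, a LIM homeobox gene needed to form the hippocampus, is shown as a promoter that was in one. It lay in the peak with the highest CPM per kb (a peak's count scaled to its library's size, over its width) of all covered promoters in a list of forebrain homeobox genes. These 5 windows were chosen after the values were seen.
Hoxa13, chr6:52260831-52261130, minus strand: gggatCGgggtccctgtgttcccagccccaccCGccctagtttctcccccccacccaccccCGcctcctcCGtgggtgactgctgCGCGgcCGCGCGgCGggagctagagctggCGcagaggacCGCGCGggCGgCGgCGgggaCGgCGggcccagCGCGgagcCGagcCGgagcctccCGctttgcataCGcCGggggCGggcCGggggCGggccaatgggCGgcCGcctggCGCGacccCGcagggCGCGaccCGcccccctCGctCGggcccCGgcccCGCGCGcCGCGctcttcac
Hoxb4, chr11:96318017-96318316, plus strand: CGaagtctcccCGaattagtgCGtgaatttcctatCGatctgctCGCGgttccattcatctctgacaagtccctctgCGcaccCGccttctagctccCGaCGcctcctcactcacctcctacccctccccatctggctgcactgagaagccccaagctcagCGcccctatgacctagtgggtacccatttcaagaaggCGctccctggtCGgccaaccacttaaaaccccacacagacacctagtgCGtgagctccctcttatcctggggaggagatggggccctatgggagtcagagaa
Hoxc4, chr15:103034145-103034444, plus strand: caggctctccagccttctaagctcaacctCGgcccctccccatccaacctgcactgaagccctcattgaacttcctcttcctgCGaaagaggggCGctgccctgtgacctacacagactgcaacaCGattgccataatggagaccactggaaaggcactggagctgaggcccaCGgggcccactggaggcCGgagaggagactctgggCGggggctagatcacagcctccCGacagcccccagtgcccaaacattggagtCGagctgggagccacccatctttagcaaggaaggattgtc
Hoxd13, chr2:74667975-74668274, plus strand: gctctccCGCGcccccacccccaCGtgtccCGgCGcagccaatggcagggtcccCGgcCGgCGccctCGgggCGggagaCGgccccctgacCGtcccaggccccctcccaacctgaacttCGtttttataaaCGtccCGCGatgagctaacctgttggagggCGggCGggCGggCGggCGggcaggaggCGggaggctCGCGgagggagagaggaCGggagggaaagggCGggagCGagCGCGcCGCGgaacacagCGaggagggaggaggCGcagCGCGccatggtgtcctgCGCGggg
Lhx2, chr2:38351058-38351357, plus strand: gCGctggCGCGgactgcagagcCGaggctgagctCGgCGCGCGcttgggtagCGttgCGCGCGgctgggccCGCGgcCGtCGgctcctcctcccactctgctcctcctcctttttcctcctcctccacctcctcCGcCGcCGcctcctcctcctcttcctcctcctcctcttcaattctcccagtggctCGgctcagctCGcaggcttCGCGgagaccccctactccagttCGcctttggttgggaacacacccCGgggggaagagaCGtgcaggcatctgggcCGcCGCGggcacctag

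Counted in these letters, the window of Hoxa13, which patterns digits and the urogenital tract, held 45 CG dinucleotides and that of Hoxd13, which patterns digits, held 37. The window of Hoxb4 held 14 and the window of Hoxc4 held 9. Of all 21262 promoter windows of protein coding genes, 2.48% held as many CG as Hoxa13, and 97.2% of those overlapped a peak. The nearest peak to the start site of Hoxa13 was 9702 bp away, that of Hoxd13 47598 bp, that of Hoxb4 39181 bp and that of Hoxc4 34895 bp. The Lhx2 window, with 29 CG, lay in a peak of 5539 bp with 26.7 CPM, or 4.81 CPM per kb.

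RefSeq windows were at hand for 22 of the 38 Hox genes, 24 windows in all since Hoxa10 and Hoxd11 had 2 each, and 0 of the 24 overlapped a peak. In cluster B only Hoxb1, Hoxb4 and Hoxb8 had a window, and in cluster C only Hoxc4. Most promoters of clusters B and C were therefore not examined, and every Hox window with 20 or more CG lay in cluster A or D. Of all protein coding windows, 67.6% overlapped one. Windows were then set beside others of like CG number. Among windows with 0 to 4 CG, 0 of 3 Hox windows and 19.8% of all windows overlapped a peak, among those with 5 to 9 CG it was 0 of 4 and 56.9%, and among those with 10 to 19 CG it was 0 of 6 and 89.4%. Among windows with 20 to 29 CG it was 0 of 9 against 96.5%, and among those with 30 or more it was 0 of 2 against 98.2%. Hox windows made up 11 of the 211 windows with at least 20 CG and no peak, out of 7640 such windows. Hox start sites lay 1210 to 48036 bp from the nearest peak, with a median of 18157 bp and 0 of 24 within 1 kb, whereas 70.4% of all start sites had a peak within 1 kb. These are counts over genes that share a locus, so they are given without a test.

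**Figure D1:**
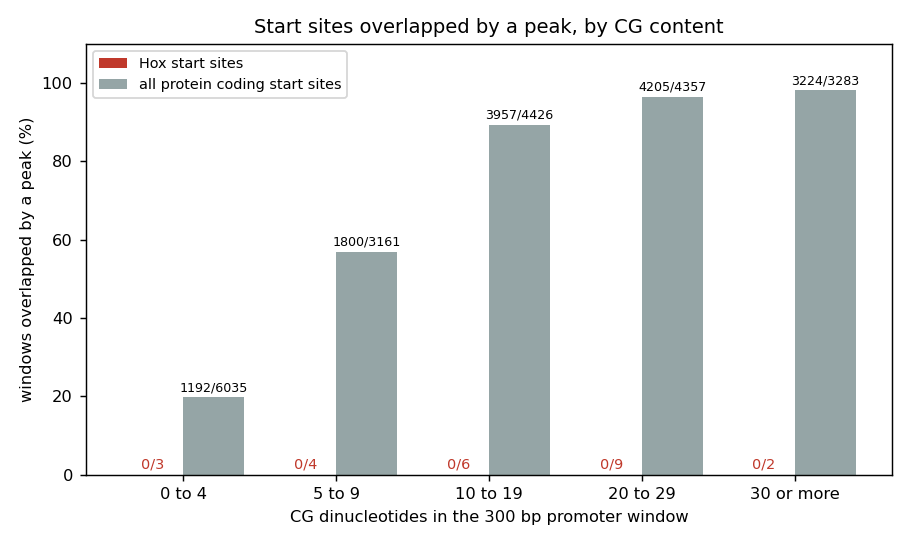
Share of 300 bp promoter windows overlapped by a peak (y axis, percent), by the number of CG dinucleotides in the window (x axis), for Hox start sites and all protein coding start sites. Labels give windows overlapped over windows counted. The Hox share was 0 in each of the 5 classes, while that of all windows was 19.8% in the lowest class and 98.2% in the highest.

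The Hox genes with their flanks covered 510 kb and held 1.18 peaks per 100 kb, with 0.541% of the bases in a peak. All protein coding genes with the same flanks held 16.4 peaks per 100 kb and had 17.4% of bases in a peak. Of the 38 Hox genes, 3 (7.89%) had a peak inside their extent and 15 (39.5%) had any within 10 kb. These shares were 77.5% and 83.2% of the 14010 protein coding genes whose length fell in the range of the Hox genes (1784 to 44009 bp). Lengths were not matched within this range. The median Hox gene was 3721.5 bp long, against 17170 bp over all protein coding genes, and a longer gene has more room for a peak. A place with no peak is a place with no row in the count table, not a measured count of 0, and how strong a signal had to be to become a row was not given in the sources used here.

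The clusters differed in how many peaks they held. Cluster A had 2.53 peaks per 100 kb over 118 kb, cluster B 0.718 over 139 kb, cluster C 0.737 over 136 kb and cluster D 0.855 over 117 kb. Within 10 kb of a peak were 7 of the 10 genes of cluster A, 3 of the 10 of cluster B, 2 of the 9 of cluster C and 3 of the 9 of cluster D. Summed over its peaks, cluster A had 5.85 ± 0.539 CPM, cluster B 1.13 ± 0.284 CPM, cluster C 0.748 ± 0.177 CPM and cluster D 0.959 ± 0.204 CPM (SD, n = 30 libraries). The lowest library of cluster A (4.78 CPM) was above the highest library of cluster B (1.84 CPM), of cluster C (1.05 CPM) and of cluster D (1.32 CPM). Sums follow the number and width of peaks as well as their height, and cluster A held 3 peaks and the others 1.

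**Figure D2:**
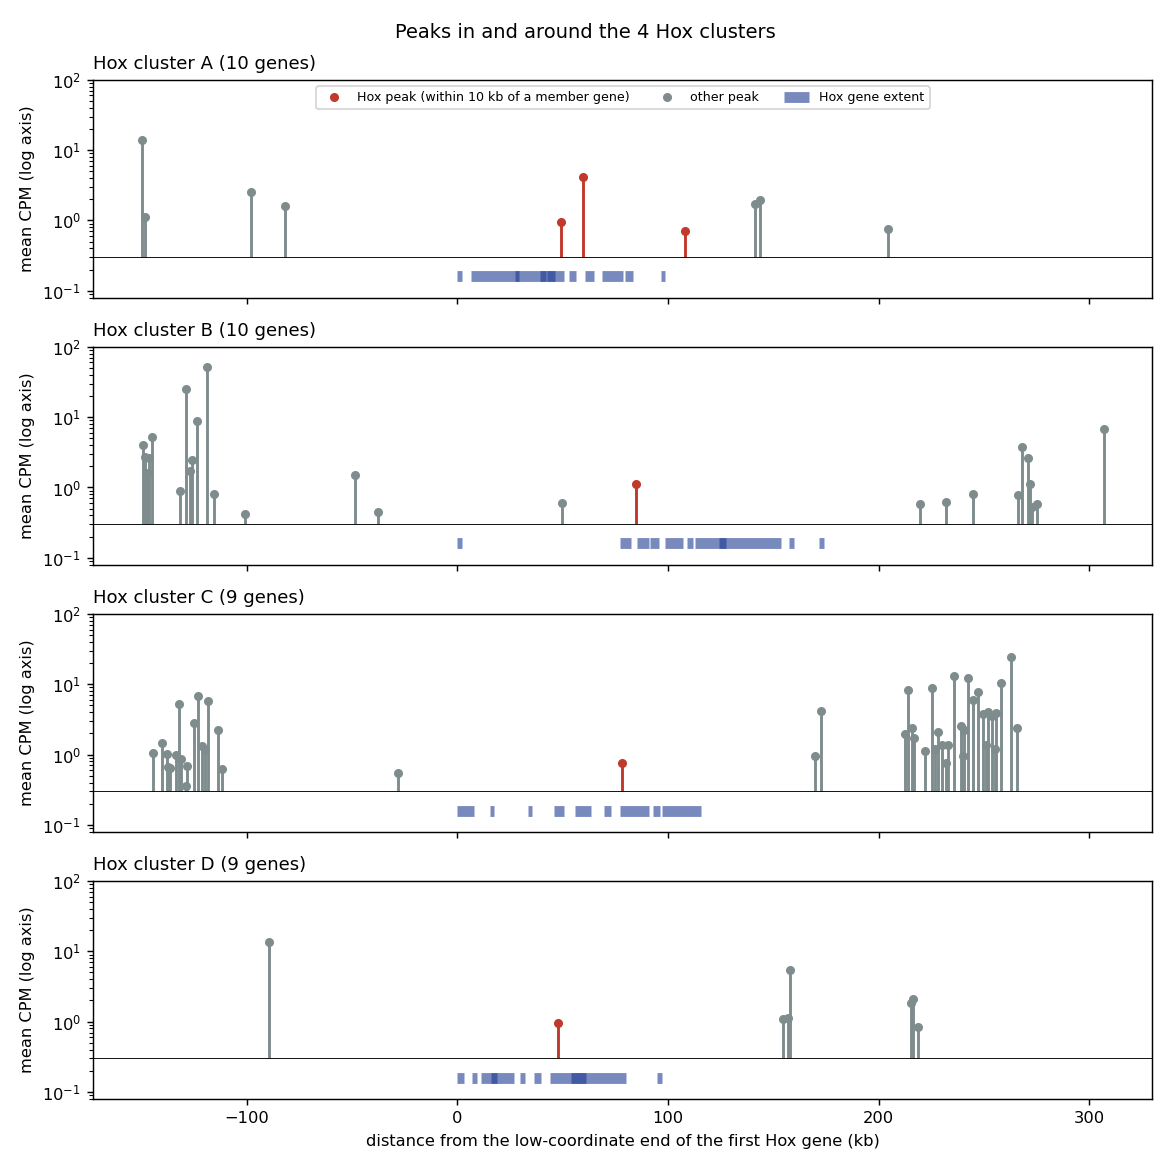
Mean TMM-scaled CPM over 30 libraries (log axis) of each peak in and around the 4 Hox clusters, against the distance in kb from the low-coordinate end of the first Hox gene. Red stems are the 6 Hox peaks, grey stems are other peaks and blue bars are the extents of Hox genes. The red stems are few and low, and the tallest of them is the Hoxa7-Hoxa9 peak at 4.19 CPM.

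The tallest Hox peak lay between Hoxa7 and Hoxa9, both of which act in blood progenitors (chr6:52221267-52222600, GRCm38, 1334 bp). It ended 497 bp below the low-coordinate end of the Hoxa9 extent and lay 2694 bp upstream of the Hoxa7 start site. Its level was 4.19 ± 0.505 CPM (SD, n = 30), or 3.14 CPM per kb, and 82.6% of all peaks were lower in CPM. Its counts ran from 96 to 243 per library. Bulk nuclei were measured, so a low level in many cells and a higher level in few cells cannot be told apart. It was the only Hox peak above the median CPM of all peaks, and it was also the widest, wider than 82.9% of all peaks.

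The other 5 Hox peaks were small. The Hoxa3 peak (chr6:52211431-52211857, 427 bp) lay inside Hoxa3, a gene needed for thymus and parathyroid, 1210 bp downstream of its start site, where the non-coding gene Hoxaas3 overlaps it. It had 0.947 ± 0.221 CPM and 2.22 CPM per kb, the lowest Hox value per kb, above 9.69% of all peaks. The Hoxa13 distal peak (chr6:52270582-52270791, 210 bp) lay 9702 bp upstream of the Hoxa13 start site, just inside the 10 kb limit. Its 0.716 ± 0.143 CPM was the lowest level of the 6, above 11.9% of all peaks in CPM, though at 3.41 CPM per kb it was above 78.2% of them.

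Outside cluster A, each cluster had a lone peak. In cluster B it lay between Hoxb9, which patterns ribs, and Hoxb8, whose loss makes mice groom excessively (chr11:96278866-96279086, 221 bp). It ended 315 bp before the Hoxb8 extent and lay 2819 bp from the Hoxb8 start site, and its 1.13 ± 0.284 CPM over a narrow width gave 5.12 CPM per kb, the highest Hox value per kb and above 94.4% of all peaks. In cluster C it lay inside Hoxc6, which helps to specify limb-level motor neurons, 997 bp from the low-coordinate end of the gene (chr15:102999223-102999500, 278 bp, 0.748 ± 0.177 CPM, 2.69 CPM per kb). In cluster D it lay 3830 bp into Hoxd3, which shapes the neck vertebrae, where the RefSeq gene Hoxd3os1 also lies (chr2:74715823-74716112, 290 bp, 0.959 ± 0.204 CPM, 3.31 CPM per kb). Mean counts per library of the 5 small peaks were 28.1 to 45.1, against 58.97 for the median peak, so their counting error was large.

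Most members of clusters B, C and D, and 3 of the 10 of cluster A, lay far from any peak. No peak lay within 10 kb of 23 of the 38 genes, and the median Hox gene was 17.1 kb from its nearest peak. The gene farthest from any peak was Hoxb2, a hindbrain segment gene, at 59.8 kb, with its neighbour Hoxb1, which specifies facial motor neurons, at 45.5 kb. In cluster D, Hoxd1 at the 3′ end was 46.9 kb and Hoxd13 at the 5′ end 44.2 kb from the nearest peak. In cluster C, Hoxc12 was 43.8 kb, Hoxc11 42.5 kb and Hoxc13, which is needed for hair and nails, 28.1 kb away. Hoxc8, Hoxc9 and Hoxc10, which set motor neuron identity along the spinal cord, were 4.95, 14.8 and 27.3 kb away. Hoxa2, which patterns the hindbrain and the pharyngeal arches, was 46.6 kb away and Hoxa11, a forelimb gene, 19.5 kb.

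By position in the clusters, the central genes were nearest to a peak. Of the genes of paralog groups 5 to 8, 8 of 11 had a peak within 10 kb, with a median distance of 6.52 kb. Of groups 1 to 4, at the 3′ end, it was 3 of 11 with a median of 28.0 kb, and of groups 9 to 13, at the 5′ end, 4 of 16 with a median of 24.0 kb. These genes share 6 peaks between them, so a single peak can serve several genes in these counts.

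Stretches without a peak spanned many genes at a time. In cluster B, 135 kb without a peak held 8 genes, Hoxb8 to Hoxb1. In cluster D, 136 kb held Hoxd8 to Hoxd13 and 107 kb held Hoxd4 and Hoxd1. In cluster C, 106 kb held Hoxc8 to Hoxc13 and 91.4 kb held Hoxc5 and Hoxc4. In cluster A, 131 kb held Hoxa2, Hoxa4, Hoxa5 and Hoxa6. Each of these stretches ran from peak to peak and past the outermost Hox gene, so part of its length was flanking sequence outside the cluster. Over the whole table the median distance between neighbouring peaks was 0.888 kb and the 90th percentile 18.2 kb. The longest stretches at clusters A, B and D, flanking sequence included, were each matched in length by about 1% of all gaps (1.01%, 0.964% and 0.948%). These are shares of the number of gaps, most of them short, and not of the genome that long gaps span. Gaps as long as these numbered 2599, 2478 and 2437, and the stretches named here were picked as the longest of their clusters.

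Peak density was also low in the first 100 kb around each cluster, and farther out around clusters A and D. It was 1.75 peaks per 100 kb in the first 50 kb outside the outermost Hox gene on both sides of the 4 clusters (a range that holds the Hoxa13 distal peak), 4.50 at 50 to 100 kb and 15.2 at 100 to 150 kb. From there to 500 kb it stayed between 10.0 and 18.8 over the 4 clusters together, but the clusters differed. Of the 61 peaks at 100 to 150 kb, 40 lay around cluster C and 15 around cluster B, against 3 around cluster A and 3 around cluster D. In the steps from 100 to 500 kb the density ran from 1 to 11 peaks per 100 kb around cluster A and from 1 to 5 around cluster D, below the 16.4 of all protein coding genes in every step. It ran from 1 to 36 around cluster B and from 13 to 49 around cluster C. Of 8 windows of 100 kb with at least 2 Hox gene starts, 87.5% held 2 peaks or fewer, with a median of 1. Of 735 windows with 5 or more protein coding gene starts, 19.7% held so few, and their median was 22. Of 11161 windows with 1 or more gene starts, 25.8% held so few, and their median was 10.

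**Figure D3:**
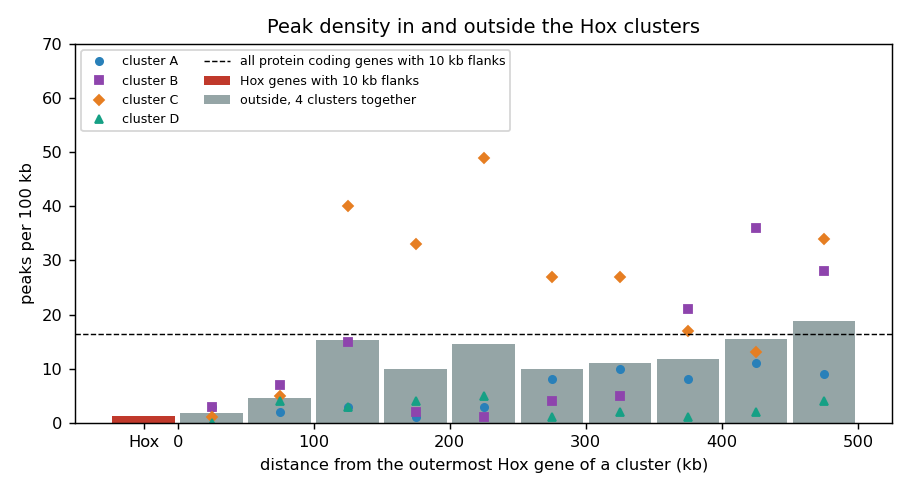
Peaks per 100 kb (y axis) in the Hox genes with 10 kb flanks (red) and in steps of 50 kb outward from the outermost Hox genes, both sides of the 4 clusters together (grey bars) and for each cluster (points). The dashed line is the density over all protein coding genes with the same flanks. The red bar stands at 1.18, the first grey bar at 1.75 and the third at 15.2, where the points of clusters A and D stand at 3 and that of cluster C at 40. The line stands at 16.4.

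Genes that act with or upstream of Hox proteins had peaks in these libraries. The 9 Hox cofactor genes (Meis, Pbx and Pknox families, whose proteins bind DNA together with Hox proteins) had 23.2 peaks per 100 kb, and 5 of their 5 promoter windows overlapped a peak. The 19 Polycomb genes had 22.0 per 100 kb and 20 of 21 windows in a peak, and the 8 Trithorax and H3K27 demethylase genes, which counter Polycomb, 20.7 per 100 kb and 7 of 7. The 12 genes of retinoic acid supply and sensing had 9.84 per 100 kb and 14 of 19 windows. The uncovered CG-rich windows of this last list were those of Aldh1a2, which makes retinoic acid, and Cyp26a1, which breaks it down.

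Among other homeobox genes, the 20 forebrain genes (such as Emx2, Lhx2 and Prox1) had 17.1 peaks per 100 kb and 15 of 23 promoter windows in a peak. The 6 ParaHox genes (Gsx, Pdx and Cdx), an evolutionary sister group of the Hox genes, had 9.21 per 100 kb and 0 of 5 windows in a peak, with 15 peaks within 10 kb of 3 of these genes. The marker lists of the tissue gave the same kind of check. Of 9 windows of excitatory neuron markers of the forebrain 7 overlapped a peak, as did 6 of 9 of inhibitory neuron markers, 3 of 4 of astrocyte, 2 of 2 of oligodendrocyte and 2 of 3 of microglia markers. Of windows of hindbrain and spinal cord markers, tissues that do use Hox genes, 0 of 3 did, and their tallest nearby peak had 1.80 CPM. Yet 6 of these 6 genes had a peak within 10 kb, at 8.76 peaks per 100 kb, above the 1.18 of the Hox genes. Of endothelial and mural markers 3 of 3 windows overlapped a peak. Choroid plexus markers had 1 of 5 windows in a peak, meningeal fibroblast markers 1 of 2, and blood markers 0 of 5. Of the 5 blood genes, 4 had a peak within 10 kb, the tallest at 95.7 CPM. Windows of these lists were not matched by CG number. The blood, ParaHox, choroid plexus, astrocyte and microglia lists had 0 windows with 20 or more CG.

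Across the 4 groups, the tallest Hox peak showed overlapping levels. The Hoxa7-Hoxa9 peak ran from 3.43 to 5.01 CPM (median 3.88) in chronically restrained mice at 45 min and from 3.21 to 4.83 CPM (median 3.94) at 0 min. In handled mice it ran from 3.93 to 4.93 CPM (median 4.44) at 45 min and from 3.68 to 4.90 CPM (median 4.35) at 0 min. The 4 ranges overlapped, with the lowest libraries among chronically restrained mice.

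The Hoxa3 peak ran from 0.639 to 1.19 CPM (median 0.958) in chronically restrained mice at 45 min and from 0.630 to 1.19 CPM (median 0.912) at 0 min, against 0.712 to 1.56 CPM (median 1.05) in handled mice at 45 min and 0.626 to 1.25 CPM (median 0.861) at 0 min. The highest library was a handled mouse at 45 min, and the ranges overlapped throughout. The Hoxa13 distal peak ran from 0.551 to 0.958 CPM (median 0.650) in chronically restrained mice at 45 min and from 0.560 to 0.824 CPM (median 0.704) at 0 min, against 0.479 to 0.997 CPM (median 0.697) in handled mice at 45 min and 0.545 to 0.992 CPM (median 0.823) at 0 min. Both ends of its range were reached by handled mice.

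In cluster B, the Hoxb9-Hoxb8 peak ran from 0.702 to 1.40 CPM (median 1.03) in chronically restrained mice at 45 min and from 0.970 to 1.30 CPM (median 1.17) at 0 min, against 0.906 to 1.84 CPM (median 1.01) in handled mice at 45 min and 0.650 to 1.83 CPM (median 1.13) at 0 min. Its spread was wider among handled mice, and its ranges overlapped. In cluster C, the Hoxc6 peak ran from 0.526 to 0.984 CPM (median 0.832) in chronically restrained mice at 45 min and from 0.558 to 1.05 CPM (median 0.883) at 0 min, against 0.456 to 0.835 CPM (median 0.632) in handled mice at 45 min and 0.517 to 0.992 CPM (median 0.709) at 0 min. Both chronic medians were above both handled medians, within overlapping ranges. In cluster D, the Hoxd3 peak ran from 0.451 to 1.26 CPM (median 0.964) in chronically restrained mice at 45 min and from 0.754 to 1.27 CPM (median 0.932) at 0 min, against 0.709 to 1.32 CPM (median 1.05) in handled mice at 45 min and 0.719 to 1.22 CPM (median 0.970) at 0 min. The 4 medians of this peak lay close together.

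**Figure D4:**
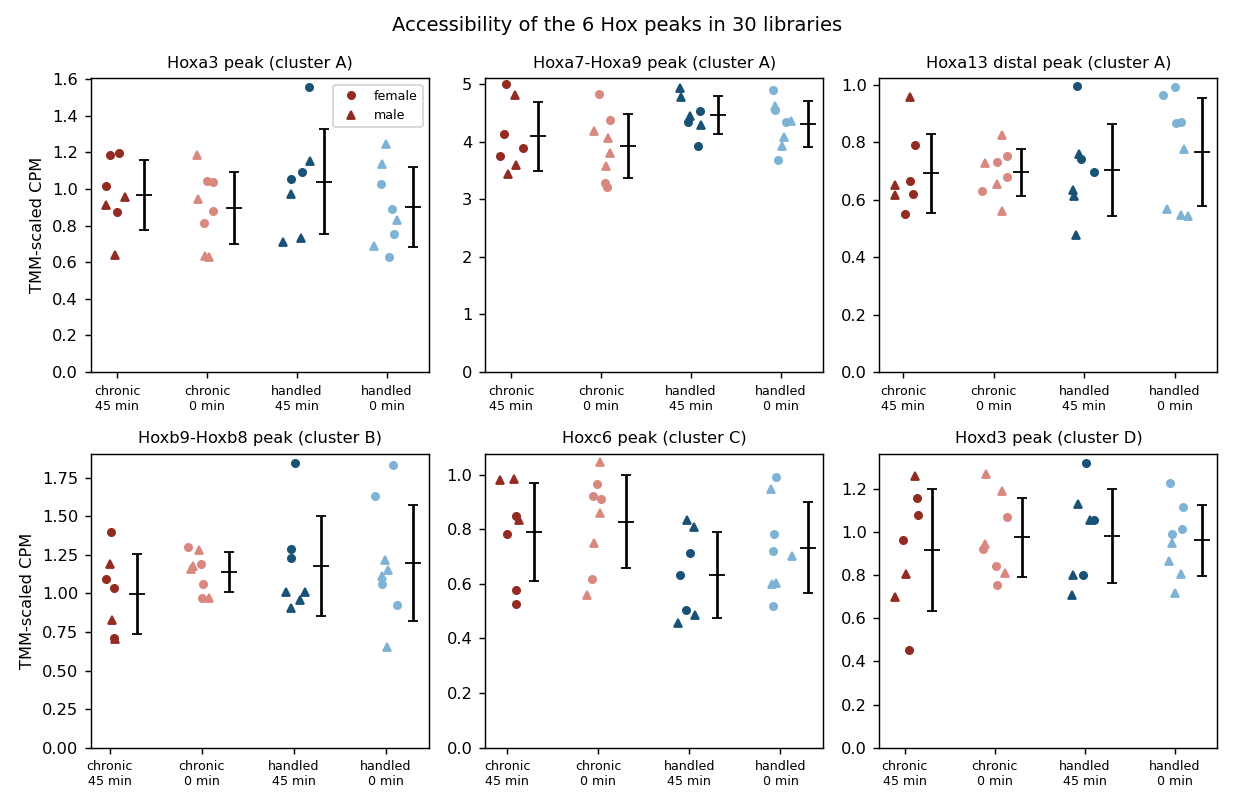
TMM-scaled CPM (y axis) of each Hox peak in each of 30 libraries, by group, with circles for females, triangles for males and black bars for the group mean and SD. In each panel the 4 groups overlap, and only the Hoxa7-Hoxa9 panel reaches above 2 CPM.

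Tested together for any difference among the 4 groups, 0 of the 6 Hox peaks were called at an adjusted p under 0.05 (edgeR quasi-likelihood F-test, Benjamini-Hochberg over 257143 peaks), where 0.0544% of all peaks were. The smallest unadjusted p of the 6 was 0.498, for the Hoxa3 peak, so 0 of the 6 had an unadjusted p under 0.05. In DESeq2 the smallest unadjusted p was 0.130, and 5 of the 6 received no adjusted p, so that its calls do not bear on them.

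The acute comparison asked whether accessibility differed 45 min after stress began. Averaged over both histories, 0 of the 6 were called for 45 min over 0 min (0.116% of all peaks), with 0 at an unadjusted p under 0.05 by edgeR or by DESeq2. The changes ran from -0.12 ± 0.126 (log2, SE) at the Hoxc6 peak to 0.12 ± 0.118 at the Hoxa3 peak, 3 above and 3 below 0, with a median of -0.03 beside a median of 0.00 over all peaks. The smallest p was that of the Hoxa7-Hoxa9 peak (0.07 ± 0.065, p = 0.261, adjusted p = 0.893 by edgeR), which averaged 4.28 ± 0.506 CPM at 45 min and 4.11 ± 0.508 CPM at 0 min (SD, n = 14 and 16). The Hoxb9-Hoxb8 peak stood at -0.07 ± 0.112, the Hoxa13 distal peak at -0.07 ± 0.125 and the Hoxd3 peak at 0.01 ± 0.118. The 95% intervals of the 6 peaks together spanned 0.772-fold to 1.28-fold, and changes beyond these bounds lay outside every one of them.

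Within each history the same comparison gave 0 of 6 calls in chronically restrained mice (0.00272% of all peaks) and 0 of 6 in handled mice (0.0109% of all peaks), with 0 unadjusted p under 0.05 in each. In chronically restrained mice the smallest p was that of the Hoxb9-Hoxb8 peak (-0.18, 95% interval -0.49 to 0.14, adjusted p = 1.00), and in handled mice that of the Hoxa3 peak (0.19 ± 0.166, adjusted p = 0.979), followed by the Hoxc6 peak (-0.20 ± 0.182, adjusted p = 0.980, edgeR). The difference between the 2 acute effects was tested directly as the interaction, with 0 of 6 calls (0% of all peaks) and 0 unadjusted p under 0.05 by edgeR or DESeq2. Its smallest p was again at the Hoxb9-Hoxb8 peak (-0.21 ± 0.222, adjusted p = 1.00, 95% interval -0.65 to 0.23, edgeR).

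Chronic restraint against handling, averaged over both times, also gave 0 of 6 calls (0% of all peaks), and here 2 of the 6 had an unadjusted p under 0.05, by edgeR and by DESeq2, as had 5.44% of all peaks by edgeR. The Hoxc6 peak averaged 0.810 ± 0.170 CPM in chronically restrained mice and 0.686 ± 0.165 CPM in handled mice (SD, n = 15 each). This log2 change of 0.27 ± 0.125 (n = 15 each, p = 0.0353, adjusted p = 0.912, edgeR) exceeded in size that of 98.3% of all peaks. The rank takes no account of error, and peaks with few counts can reach large changes by error alone. This peak had a mean of 29.6 counts per library, and the median SE over all peaks was 0.0998. Within the 4 batches the difference was 0.15, 0.67, 0.04 and 0.09 on the log2 scale, and without batch 2 the fitted change was 0.13 (adjusted p = 1.00, edgeR). The Hoxa7-Hoxa9 peak averaged 4.00 ± 0.564 CPM in chronically restrained mice and 4.38 ± 0.363 CPM in handled mice, a log2 change of -0.13 ± 0.065 (adjusted p = 0.912, edgeR), with within-batch differences of -0.25, -0.20, -0.06 and -0.02. The other 4 peaks stood between -0.16 ± 0.111 (Hoxb9-Hoxb8) and -0.04 ± 0.118 (Hoxd3). Fitted by sex, the change of the Hoxb9-Hoxb8 peak was -0.41 in females (adjusted p = 0.299, edgeR) and 0.058 in males (adjusted p = 0.999, edgeR), and the difference between the sexes was not tested.

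At single times, chronic restraint gave 0 of 6 calls at 45 min and 0 of 6 at 0 min (0% of all peaks in each), with 0 unadjusted p under 0.05 in each. At 45 min the Hoxc6 peak had the smallest p (0.35 ± 0.184, adjusted p = 1.00), followed by the Hoxb9-Hoxb8 peak (-0.27 ± 0.163, adjusted p = 1.00, edgeR). At 0 min it was the Hoxa7-Hoxa9 peak (-0.14 ± 0.089, adjusted p = 0.997, edgeR).

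Females against males gave 0 of 6 calls (0.035% of all peaks), with 1 of the 6 at an unadjusted p under 0.05 by edgeR and by DESeq2, beside 5.37% of all peaks by edgeR. This was the Hoxb9-Hoxb8 peak, at 1.24 ± 0.325 CPM in females and 1.02 ± 0.190 CPM in males (SD, n = 15 each), a log2 change of 0.29 ± 0.111 (p = 0.0104, adjusted p = 0.906, edgeR). It was higher in females in each of the 4 batches, by 0.29, 0.30, 0.05 and 0.44 on the log2 scale. Without animal 45, a handled female at 0 min with 1.83 CPM, the change was 0.26 (adjusted p = 0.985, edgeR). Females ran from 0.714 to 1.84 CPM and males from 0.650 to 1.28 CPM, and the ranges overlapped below the highest female libraries. The Hoxa13 distal peak had 0.21 ± 0.124 and the Hoxa3 peak 0.18 ± 0.118 (adjusted p = 0.945 and 0.949, edgeR).

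**Figure D5:**
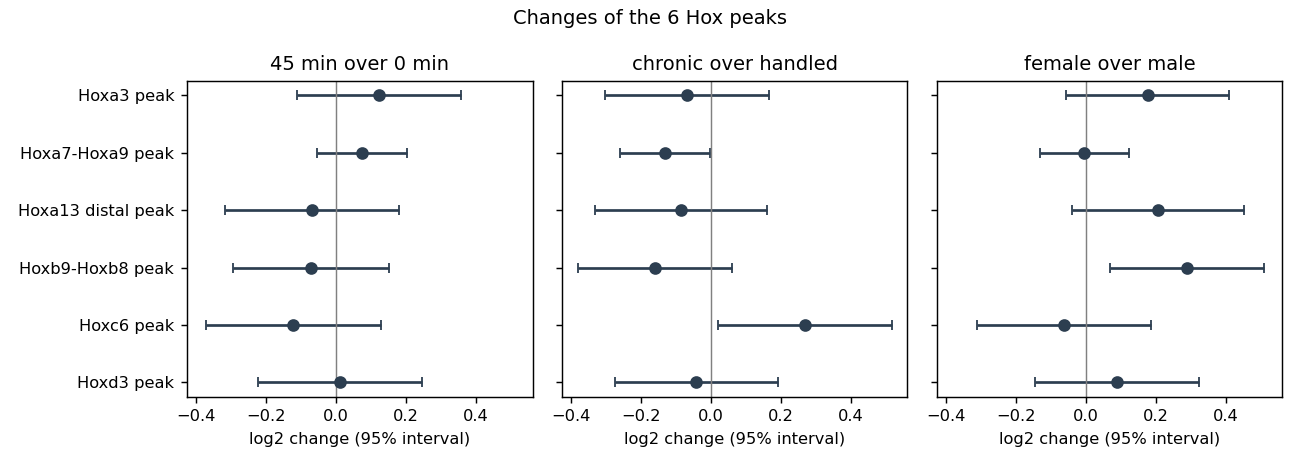
Fitted log2 change of each Hox peak (points) with its 95% interval (bars) for 45 min over 0 min, chronic over handled and female over male mice. The intervals of the Hoxc6 and Hoxa7-Hoxa9 peaks in the middle panel and of the Hoxb9-Hoxb8 peak in the right panel leave out 0, and none of these 3 passed the adjustment over all peaks.

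Each of the 4 batches held all 4 groups. Among the 4 batches, 0 of 6 Hox peaks were called (0.00156% of all peaks), with 0 unadjusted p under 0.05 by edgeR or DESeq2 and the smallest at the Hoxa7-Hoxa9 peak (adjusted p = 0.557). That peak averaged 3.96 ± 0.478, 4.30 ± 0.412, 4.03 ± 0.504 and 4.57 ± 0.496 CPM in batches 1 to 4 (SD, n = 8, 8, 8 and 6).

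As a measure of spread between animals, the residual SD of log2 CPM around group, sex and batch was lowest at the Hoxa7-Hoxa9 peak (0.15, above 11.6% of all peaks), followed by the Hoxa13 distal peak (0.27, above 54.4%) and the Hoxb9-Hoxb8 peak (0.30, above 66.6%). It was highest at the Hoxd3 peak (0.34, above 83.3%), with the Hoxc6 peak at 0.31 and the Hoxa3 peak at 0.31. The median over all peaks was 0.26. This SD also holds counting error, which is larger at low counts, so its ranks do not measure spread between animals alone. The Hoxa7-Hoxa9 peak had the highest mean count of the 6, at 166 per library. The fitted dispersion of edgeR, set against its trend at the same count, ran from 0.748 (Hoxa13 distal) times the trend to 1.02 times (Hoxb9-Hoxb8).

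The related lists of genes gave 3 called peaks over all comparisons, chosen here because they passed the test. A peak near Pknox2, a Hox cofactor gene (chr9:36944536-36945862), was lower at 45 min than at 0 min (log2 change -0.39 ± 0.079, adjusted p = 0.0248, edgeR), 1 call among 324 cofactor peaks whose median change was 0.00. Near Kdm6a, the X-linked H3K27 demethylase gene known to escape X inactivation, 2 peaks were higher in females than in males, by 0.89 ± 0.053 and 0.74 ± 0.128 (adjusted p = 3.63e-16 and 0.00063, edgeR), among 146 peaks of its list. No peak of the Polycomb (247 peaks), retinoic acid (136), forebrain homeobox (228) or ParaHox (15) lists was called in any of the 10 comparisons. Over all peaks, 0.116% were called for the averaged acute effect and 0.035% for sex, and no comparison had a share above 0.116%. At such shares lists of this size hold few calls or none, so counts of 0 or 1 say little about a list.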

How the data were processed

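The authors deposited raw, whole-number counts for 1 set of peak regions shared by the 30 libraries. Tools listed in the submitters' processing notes are Genrich 0.6.1, Picard, Bowtie2 and Trimmomatic, with the build GRCm38. How regions were merged and counted, and whether a count is a read or a fragment, was not given in the sources used here. Totals were 26104576 to 55294838 counts per library, and 2 further columns that matched no sample were not used. Counts were tested in edgeR 4.0.16 (R 4.3.3) with filterByExpr, TMM scaling and a robust quasi-likelihood model of group, sex and batch, adjusted by Benjamini-Hochberg over the 257143 peaks kept of 257149. All 6 Hox peaks were kept. DESeq2 1.42.0 was an alternative. Levels are TMM-scaled CPM. The model was tested on simulated counts, with dispersion set at its trend and no sex or batch effect. Changes set there were larger than those of the main fit at the Hox peaks, so that run does not bear on changes of their size. Gene extents and promoter windows are RefSeq's on GRCm38.p6. A motif here is the letters CG, which read the same on both strands. The members and gene lists were chosen with earlier results of these data known. The rule names the 3 peaks with the smallest p in a comparison, those with extreme spread and the called peaks of related lists. Promoters and genes named elsewhere were chosen after their values were seen.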

Additional observations from a re-analysis of the deposited data

Results flagged for a closer look

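In the Hoxb9-Hoxb8 peak, 1 library stood far from the rest of its group. Animal 1, a handled female of batch 1 collected at 45 min, had 1.84 CPM (77 counts), and the next of the 7 libraries of its group had 1.29 CPM. The gap was 0.592 of the group's range, above Dixon's limit of 0.568. It was the only gap of this kind among 24 groups checked, and chance flags about 1 in 20 groups.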

How the results depend on the processing

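No paired analysis was possible because the animal numbers are unique to each library and no groups share them. Over 134 counts of called Hox peaks (10 comparisons under up to 16 other settings) each count was 0. Over all peaks, at most 0.116% were called in a main comparison and at most 11764 of 257143 under any setting. A count of 0 among 6 peaks was therefore likely under each setting, and these zeros do not measure stability. The DESeq2 counts for the averaged acute effect, any group and any batch rest on 1 Hox peak, since 5 of the 6 received no adjusted p there. Over all settings, these counts had a smallest adjusted p of 0.236. Their smallest unadjusted p was 0.00329, reached in another fit, for sex at the Hoxb9-Hoxb8 peak without batch 3 (adjusted p = 0.471, edgeR). Of 438 single-peak changes with a direction, 412 kept it. None of the other 26 reached an unadjusted p under 0.203, and the cause was not tested. With males only, the averaged acute change was 0.029 (Hoxc6), -0.017 (Hoxd3), -0.10 (Hoxa3) and 0.080 (Hoxa13 distal), the acute change of Hoxa3 -0.13 in handled and -0.076 in chronically restrained mice, and its interaction 0.053. The averaged chronic change was then 0.058 (Hoxb9-Hoxb8), 0.16 (Hoxd3) and 0.24 (Hoxa13 distal, 0.17 at 0 min). With females only, the chronic change was -0.41 (Hoxb9-Hoxb8, unadjusted p = 0.00913 and -0.59 at 45 min), -0.35 (Hoxa13 distal) and -0.27 (Hoxd3), and the acute change of Hoxa3 0.35. Differences between the sexes were not tested. With females only, the acute change of Hoxb9-Hoxb8 was 0.056, the chronic change of Hoxa3 0.028 and the interaction of Hoxc6 -0.076. Without batch 3, the acute change was -0.012 (Hoxd3) and -0.0090 (Hoxa7-Hoxa9, -0.044 in chronically restrained mice), and the sex change 0.034 (Hoxc6) and 0.050 (Hoxa7-Hoxa9). Without batch 1, it was -0.038 for the acute change of Hoxd3 and -0.011 (Hoxd3) and 0.032 (Hoxa7-Hoxa9) for sex, and without batch 2 the acute change of Hoxb9-Hoxb8 was 0.038. The acute change of Hoxd3 was -0.021 with a top-share covariate (counts falling in the most covered 1% of peaks) and -0.0029 without sex and batch, and the sex change of Hoxa7-Hoxa9 was 0.0031 without batch.

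Without the 10 kb flank, a choice added for this count after seeing the data, 3 Hox peaks remained, and with 20 kb there were 6. The median Hox peak then stood above 46.4% of all peaks in CPM per kb, against 72.9% with the flank, and above 25.6% when CPM was not divided by width. Without the flank the sum of cluster A was 0.947 CPM and that of cluster B 0, by construction with fewer peaks. The median residual SD, which holds counting error, stood above 68.5% of all peaks, and above 73.8% without the flank. By edgeR dispersion over its trend, the median Hox peak stood above 39.5%. Calls over all peaks depended on the setting, with 20 (females only) to 1763 (top-share covariate) for the averaged acute effect, beside 299. They were 0 to 375 in handled mice (28), 0 to 55 in chronically restrained mice (7), 3 to 796 for any group (140), 56 to 106 for sex (90) and 1 to 11764 for batch (4). The averaged chronic effect gave 0 to 3, and that at 0 min 0 to 4. The small Hox peaks, with means under 46 counts, limit what could be seen: intervals for the averaged effects reach from 0.772-fold to 1.28-fold for the acute and from 0.767-fold to 1.43-fold for the chronic change. Between single groups they were wider. The acute change reached from 0.675-fold to 1.43-fold in handled and from 0.710-fold to 1.31-fold in chronically restrained mice. The chronic change reached from 0.665-fold to 1.64-fold at 45 min and from 0.728-fold to 1.44-fold at 0 min.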

Other observations

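Other genes with CG-rich promoters and no peak over them, chosen after their values were seen, included genes known from other brain regions or from the germ line. At least 20 CG in the promoter window and no peak over it were found for 192 genes outside the Hox members. Among them were Slc6a4, the serotonin transporter (28 CG, nearest peak 0.85 kb from the start site), and Fev, a transcription factor of serotonin neurons (25 CG, 2.2 kb). Slc6a3, the dopamine transporter, had 20 CG and its nearest peak at 15.7 kb, and Slc18a3, the vesicular acetylcholine transporter, 27 CG and 8.11 kb. Of the homeobox genes of midbrain, hindbrain and spinal cord, En1 had 23 CG (8.73 kb), Gbx2 27 CG (9.17 kb), Phox2a 30 CG (3.27 kb), Mnx1 26 CG (10.2 kb) and Isl1 37 CG (198 kb). The germ-line genes Ddx4 (38 CG, 4.01 kb), Sycp1 (21 CG, 43.8 kb) and Mael (24 CG, 4.91 kb) were on the list too. All of these were picked by theme and do not describe the 192 genes as a whole. The list also held, for example, Tac1 (22 CG, 11.7 kb), Notch3 (25 CG, 0.931 kb), Zic1 (31 CG, 0.231 kb) and Npas1 (20 CG, 0.236 kb).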
